A study of Zea mays with 96 samples.

Results

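Starch in the maize kernel is built by a small set of enzymes, and the transcript levels of 7 genes that encode them were followed in endosperm of 8 genotypes at 3 ages. The 7 genes were chosen by name from the 46430 gene rows of the count tables, and every one was detected and passed the filter on low counts in each comparison. They comprised *wx1* (Zm00001d045462, granule-bound starch synthase I), *ss1* (Zm00001d045261, starch synthase I), *su2* (Zm00001d037234, starch synthase IIa), *du1* (Zm00001d000002, starch synthase III), *ae1* (Zm00001d016684, starch branching enzyme IIb), *sbe1* (Zm00001d014844, starch branching enzyme I), and *su1* (Zm00001d049753, an isoamylase-type debranching enzyme).

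Starch synthases lengthen glucan chains by adding glucose from ADP-glucose. The granule-bound enzyme makes amylose, the nearly linear polymer, whereas the soluble synthases, branching enzymes, and debranching enzymes together build amylopectin, the branched polymer that packs into granules. Branching enzymes cut a chain and rejoin it as a side branch, and the isoamylase removes branches that would disturb packing. In the cereal endosperm these enzymes act during grain filling, and mutants of several of the 7 genes were first known by their kernels, such as *waxy*, *sugary*, *dull*, and *amylose-extender*.

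The genotypes were WT, the single mutants *nkd1*, *nkd2*, and *o2*, the double mutants *nkd1 o2*, *nkd2 o2*, and *nkd1 nkd2*, and the triple mutant *nkd1 nkd2 o2*, all homozygous in the W22 inbred and free of transgenes. *NKD1* and *NKD2* are paralogs that encode INDETERMINATE DOMAIN-type transcription factors, and *O2* encodes a bZIP factor known as an activator of zein storage protein genes. The *nkd* mutants carried the *nkd1-Ds* and *nkd2-null* alleles, the *o2* allele was not named, and all genotypes descended from selfing of a triple heterozygote. Each mutation was therefore represented by 1 allele. Plants were grown in the field and self-pollinated, and endosperm was collected when 8, 12, or 16 days had passed since pollination (DAP). Each of the 24 groups had 4 libraries, each from a different ear and from a pool of 3 endosperms, so that cell types of the endosperm were mixed. Fewer cells of a type and less RNA per cell cannot be told apart in such material. The genotype and the ear cannot be told apart within any library, and P values measured the spread between ears.

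The 96 libraries held 31327665 to 68052826 reads on genes. Levels are given as CPM, normalised read counts at a common library size after TMM scaling, which sets the bulk of genes level between libraries, and as the 4 libraries of a group in the order of their replicate numbers. Because transcript lengths were not used, levels were compared between samples and not between genes. The *o2* transcript was at most 1.43 CPM in every *o2* mutant library and the *nkd2* transcript at most 0.889 CPM in every *nkd2* mutant library, whereas the *nkd1* transcript was lowered but still present in *nkd1* mutants. The *nkd2* libraries at 12 DAP stood apart from each other as pairs: the mean chi-square per gene was 12.9 between replicates 1 and 2 and 67.7 between replicates 3 and 4 but 180 to 284 across the pairs, and 75.7 and 75.9% of reads fell on genes in the first pair and 82 and 81.6% in the second. Other groups were uneven too. In the triple mutant at 12 DAP the same pairs had 14.8 and 13.6, and 50.4 to 74 across. In WT at 8 DAP replicate 4 had 82.9 to 184 with the others, which had 42.5 to 46.4 among themselves. A gene was called higher or lower at an adjusted P below 0.05 (edgeR quasi-likelihood F-test, with P adjusted by the Benjamini-Hochberg method across the tested genes) and was named a differentially expressed gene (DEG) where the log2 fold change (log2FC) also exceeded 1 in size. The share of reads on 13 zein genes fell from a mean of 16.5% in WT to 3.39% in *o2* and 0.0247% in the triple mutant at 16 DAP. Scaling to library totals instead of TMM moved the median log2FC of all genes against WT by up to 0.75, in the triple mutant at 16 DAP, so log2FC values below are relative to the bulk of genes.

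**Figure D1:**
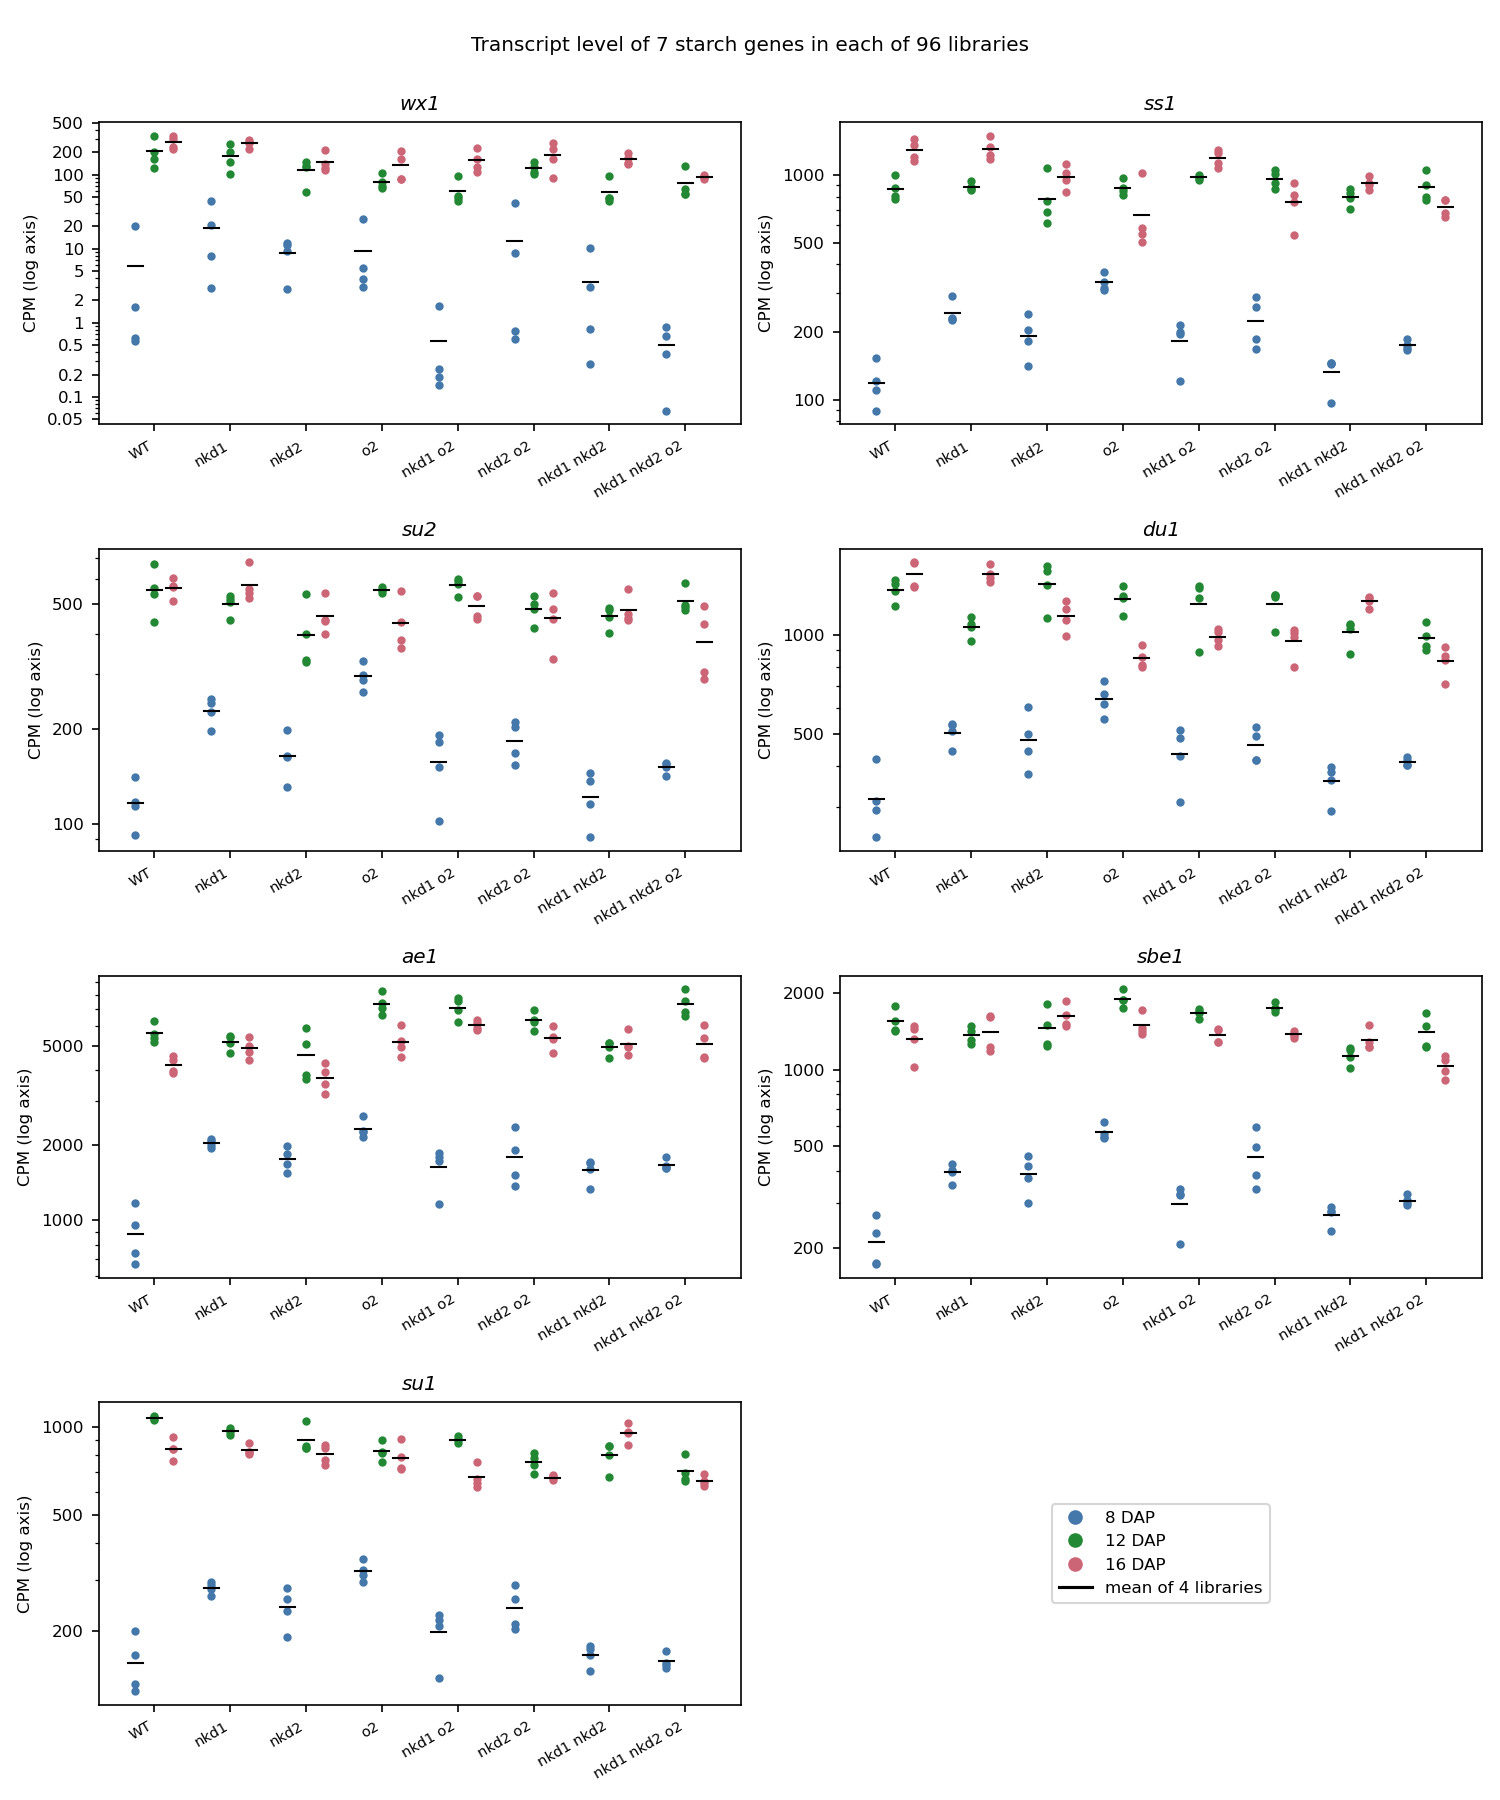
Transcript level of each of the 7 genes in all 96 libraries, with CPM on a log axis and genotypes along the x axis. Each point is 1 library, coloured by age, and the short line is the mean of 4 libraries; the 8 DAP points lie below those of 12 DAP in every genotype and gene.

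All 7 genes rose from 8 to 12 DAP in all 8 genotypes, and smaller changes followed from 12 to 16 DAP. The 56 comparisons of 12 with 8 DAP within a genotype were all called higher, against 25.7% of all gene comparisons called higher and 26% lower. In all 56 the 4 libraries of the later age lay above the 4 of the earlier age, a count with no share over all genes beside it. In WT, *wx1* had the steepest rise. Its level was 0.63, 1.64, 20.3, and 0.571 CPM at 8 DAP and 336, 165, 124, and 205 CPM at 12 DAP (log2FC 5.20, SE 0.84, adjusted P = 1.35e-07), and without replicate 3 of every genotype the log2FC was 7.99. The soluble synthases followed with smaller folds. *ss1*, whose enzyme makes short chains of amylopectin, rose from 89.4, 120.5, 110.4, and 153 CPM to 1004, 873, 804, and 779.9 CPM (log2FC 2.87, SE 0.17, adjusted P = 8.18e-25). *su2*, whose enzyme extends chains of middle length, rose from 92.5, 118, 114, and 141 CPM to 668, 562, 536, and 437 CPM (log2FC 2.24, SE 0.16, adjusted P = 1.64e-21). *du1*, whose enzyme makes long chains, had the smallest WT fold of the 7, from 243, 294, 314, and 419 CPM to 1423, 1465, 1361, and 1220.3 CPM (log2FC 2.11, SE 0.13, adjusted P = 4.78e-24).

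The branching and debranching genes rose together with the synthases in WT. *ae1* went from 668, 955, 738, and 1171 CPM to 6289, 5576, 5192, and 5372 CPM (log2FC 2.67, SE 0.14, adjusted P = 9.62e-28). For *sbe1*, the paralogous branching enzyme gene, the values were 175, 228, 172, and 268 CPM and 1781, 1553, 1435, and 1421 CPM (log2FC 2.88, SE 0.14, adjusted P = 1.03e-29). For *su1* they were 125, 166, 132, and 200.4 CPM and 1087, 1065, 1054, and 1074 CPM (log2FC 2.78, SE 0.11, adjusted P = 2.02e-34).

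Between 12 and 16 DAP, 4 of 56 comparisons were called higher and 14 lower, against 16% and 18% of all gene comparisons. Without replicate 3 of every group 10 were called in place of 18. In WT the direction depended on the gene. *ss1* still rose, to 1363, 1442, 1201, and 1156 CPM at 16 DAP (log2FC 0.58, SE 0.16, adjusted P = 0.00297). *ae1* fell to 4543, 4384, 3877, and 3971 CPM (log2FC -0.42, SE 0.13, adjusted P = 0.00972) and *su1* fell to 839, 921, 839, and 764 CPM (log2FC -0.35, SE 0.11, adjusted P = 0.00625), and in these 3 genes the 2 ages did not overlap. WT *wx1*, *su2*, *du1*, and *sbe1* had log2FC of 0.41, 0.03, 0.16, and -0.23 and did not pass the test. In *o2*, 4 genes fell instead, *du1* by 0.60, *ae1* by 0.51, *ss1* by 0.40, and *sbe1* by 0.34 on the log2 scale, beside 17.3% of all genes called lower in *o2*, and none was called higher. In *nkd1*, *du1* (0.53) and *ss1* (0.56) were called higher, beside 17.7% of all genes, and none of the 7 lower, beside 20.9%. *wx1* was called in no genotype, but its log2FC was above 0 in all 8, from 0.29 to 1.45. Its libraries did not overlap between the ages in *nkd1 nkd2* (44.5 to 94.9 and 141 to 197 CPM) or *nkd1 o2* (44 to 96.6 and 108 to 230 CPM).

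**Figure D2:**
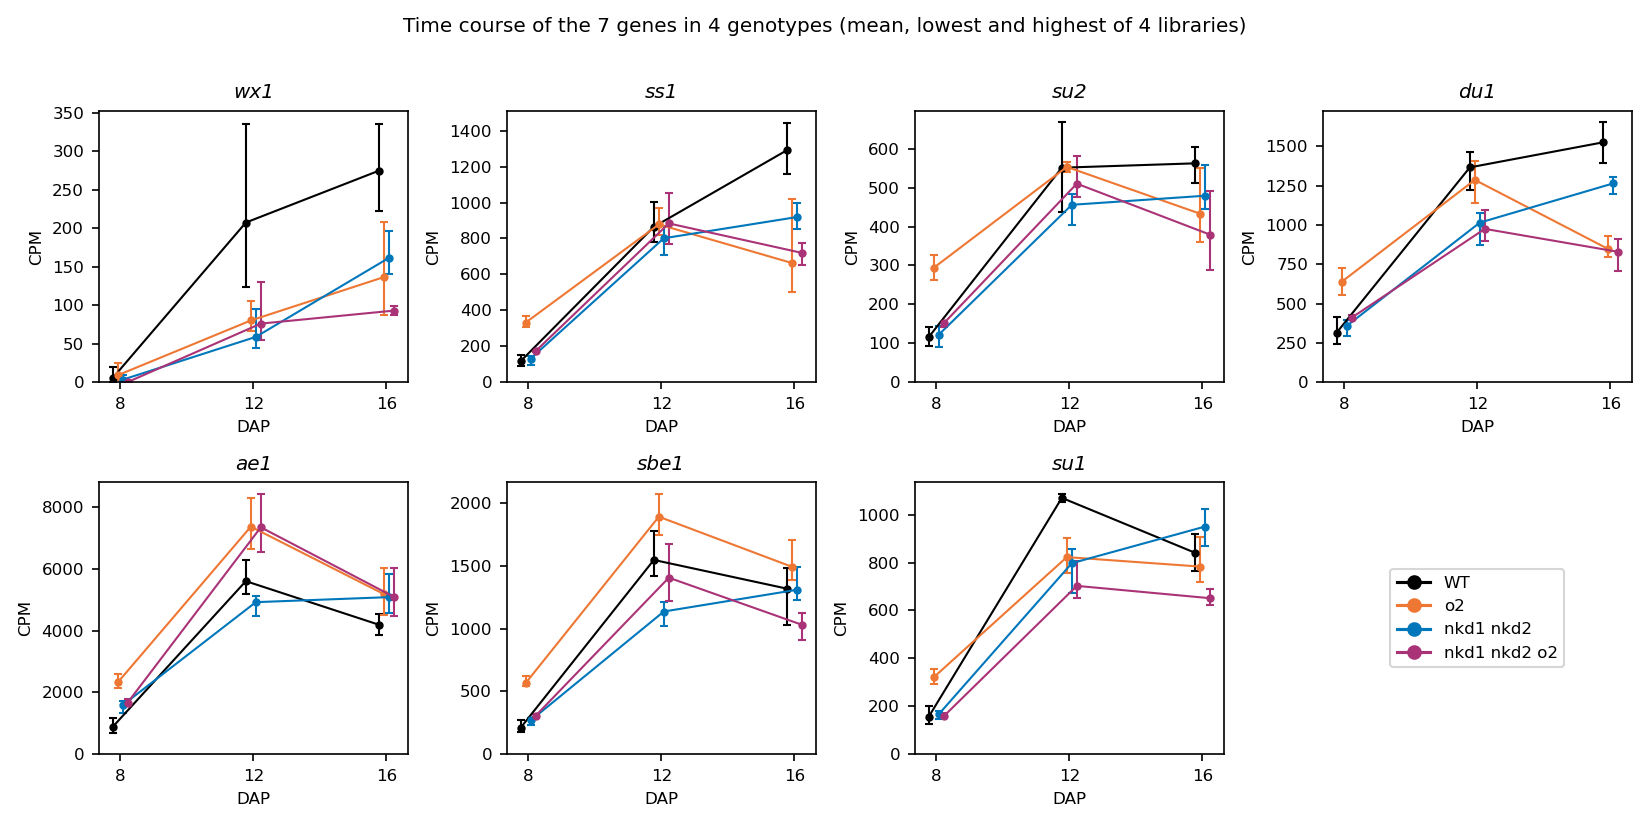
Mean CPM of each gene, on a linear axis from 0, at 8, 12, and 16 DAP in WT, *o2*, *nkd1 nkd2*, and the triple mutant, with bars from the lowest to the highest of 4 libraries. The lines climb from 8 to 12 DAP, and the *ss1* lines part at 16 DAP, where the *o2* libraries reach from 504 to 1022 CPM and those of WT from 1156 to 1442 CPM.

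At 8 DAP the starch genes were higher in the mutants than in WT. Over 7 genes and 7 mutants, 31 of 49 comparisons were called higher and 1 lower, against 10.8% and 12.8% of all gene comparisons, and 6 of the higher calls were DEGs, beside 1.41% of all gene comparisons. The median log2FC over the 49 was 0.58, beside -0.04 over all genes. These 7 comparisons share the same 4 WT libraries, so a low level in those libraries enters all of them. Without replicate 3 of every genotype 17 of the 49 were called in either direction, in place of 32.

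*ae1* was called higher in all 7 mutants. Its level was 668, 955, 738, and 1171 CPM in WT and 2269.6, 2609, 2257, and 2152 CPM in *o2* (log2FC 1.29, SE 0.15, adjusted P = 3.1e-07). In *nkd1* it was 1947, 2008, 2118, and 2083 CPM (log2FC 1.15, SE 0.15, adjusted P = 1.44e-05). Both groups lay wholly above WT, as did the others except *nkd1 o2*, whose levels of 1862, 1165, 1723, and 1792 CPM reached the top of the WT range in 1 library. The other 5 mutants had log2FC between 0.82 and 0.97. *sbe1* was called higher in 6 mutants, from 0.43 in *nkd1 o2* to 1.32 in *o2*, where its level was 539, 625, 556, and 545 CPM against 175, 228, 172, and 268 CPM in WT (log2FC 1.32, SE 0.15, adjusted P = 3.2e-07). In *nkd1 nkd2*, *sbe1* was 233, 287, 278, and 275 CPM and did not pass the test (log2FC 0.33, SE 0.15, adjusted P = 0.142).

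Among the soluble synthase genes, *ss1* was called higher in 6 mutants and *su2* and *du1* in 4 each. *o2* had the highest mean in all 3 genes. *ss1* was 336, 371, 316, and 309 CPM in *o2*, above every library of the other genotypes, against 89.4, 120.5, 110.4, and 153 CPM in WT (log2FC 1.39, SE 0.18, adjusted P = 1.4e-06). *su2* in *o2* was 287, 328, 297, and 263 CPM against 92.5, 118, 114, and 141 CPM (log2FC 1.23, SE 0.15, adjusted P = 1.03e-06), and *du1* was 556, 725, 663, and 616 CPM against 243, 294, 314, and 419 CPM (log2FC 0.91, SE 0.14, adjusted P = 1.68e-05). *nkd1* came next in the mean level of these genes. *nkd1 nkd2* stood nearest to WT: its *ss1*, *su2*, and *du1* values of 96.4 to 146, 90.9 to 145, and 292 to 398 CPM overlapped those of WT, and *ae1* was its single call (log2FC 0.83, SE 0.15, adjusted P = 0.000249).

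*su1* was called higher in *nkd1*, *nkd2*, *o2*, and *nkd2 o2*, with log2FC between 0.57 and 0.94. In *o2* it was 311, 353, 324, and 293 CPM against 125, 166, 132, and 200.4 CPM in WT (log2FC 0.94, SE 0.13, adjusted P = 5.82e-06). The triple mutant, at 154, 171, 150.3, and 156 CPM, lay inside the WT range (log2FC -0.07, SE 0.13, adjusted P = 0.724). Within the triple mutant, *ae1*, *ss1*, and *sbe1* were called higher, and *su1* was not.

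*wx1* had low transcript levels at 8 DAP and varied widely between ears. Its level was 44.2, 21.1, 7.93, and 2.99 CPM in *nkd1*, 0.599, 8.64, 0.783, and 41.4 CPM in *nkd2 o2*, and 0.66, 0.376, 0.0652, and 0.875 CPM in the triple mutant. The triple mutant libraries held 4 to 62 reads of the gene, and the 4 overlapped the WT range. The triple mutant was the only one called lower than WT (log2FC -3.63, SE 1.37, adjusted P = 0.0382). The WT mean rested on replicate 3, at 20.3 CPM among WT values of 0.571 to 1.64 CPM, and without replicate 3 of every genotype the log2FC was -0.64 (adjusted P = 0.767). The call was also lost without replicate 1 or replicate 2 and when the replicate number entered as a block (adjusted P = 0.107). *wx1* in *nkd1 o2*, at 0.187, 0.145, 0.238, and 1.69 CPM, had a like fold and did not pass the test (log2FC -3.47, SE 1.36, adjusted P = 0.072).

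The genotype means at 8 DAP varied together in 6 of the genes. Over the 8 genotype means, Pearson's r between pairs of *ss1*, *su2*, *du1*, *ae1*, *sbe1*, and *su1* was 0.769 to 0.986, and r of *wx1* with them was 0.36 to 0.747. These are descriptions over 8 points that come from the same libraries. The mutant means also lay ahead of the WT mean along the general WT change from 8 to 12 DAP. With the 7 genes left out, each library was placed on the line from the mean WT profile at 8 DAP (0) to that at 12 DAP (1) over 27321 genes. The WT libraries ranged from -0.0899 to 0.149, and the mutant means were 0.299 in *nkd1*, 0.296 in *o2*, 0.225 in *nkd2*, 0.204 in the triple mutant, 0.197 in *nkd1 o2*, 0.187 in *nkd2 o2*, and 0.1 in *nkd1 nkd2*. The WT libraries define the 0, so a shift in them enters every mutant value. The lowest libraries of *nkd1 nkd2* (0.0504), *nkd1 o2* (0.0702), *nkd2 o2* (0.112), and the triple mutant (0.131) lay within the WT range. The *o2* transcript, at 667 ± 80.9 CPM in WT at 12 DAP, was at 8 DAP 19.4 ± 7.57 CPM in WT, 98.7 ± 13.7 CPM in *nkd1*, and 77.3 ± 17.9 CPM in *nkd2*. The part of this position in the starch gene result was not tested.

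The genotypes that added *nkd* mutations to *o2* had lower 8 DAP levels than *o2*. All 7 genes were called lower than in *o2* in the triple mutant, where 14.4% of all genes were, and in *nkd1 o2*, where 12.2% were. In *nkd2 o2* 4 genes were called lower, beside 12.2% of all genes. With the triple mutant against *nkd1 nkd2*, where no gene was called at adjusted P below 0.05, this made 18 of 28 comparisons lower and 0 higher, beside 11.8% and 12.2% of all gene comparisons. Without replicate 2 of every genotype 10 were called. The *wx1* calls of *nkd1 o2* and the triple mutant against *o2* were lost without replicate 3 (adjusted P = 0.187 and 0.16). *ss1* was 196, 121, 200.1, and 216 CPM in *nkd1 o2* and 170.3, 185, 167, and 175 CPM in the triple mutant, both wholly below *o2* (log2FC -0.83, SE 0.17, adjusted P = 0.000797 and log2FC -0.91, SE 0.17, adjusted P = 0.00019). *su1* had here its only DEG between genotypes of the same age, with 154, 171, 150.3, and 156 CPM in the triple mutant and 311, 353, 324, and 293 CPM in *o2* (log2FC -1.0, SE 0.13, adjusted P = 1.45e-06). *ae1* was the least lowered of the 7 in the triple mutant against *o2* (log2FC -0.46, SE 0.15, adjusted P = 0.0172).

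The interaction term asks whether a double mutant departs from the sum of its parts on the log2 scale, and it was negative for starch genes at 8 DAP. It was called below 0 in 25 of 28 tests and above 0 in none, against 11.2% and 12.9% of all gene tests. In the *nkd1-o2* interaction all 7 genes were called, beside 11.8% of all genes, with *ae1* at -1.58 (SE 0.21, adjusted P = 0.000218) and *su2* at -1.74 (SE 0.22, adjusted P = 0.000157). In the other 3 interactions the 6 genes other than *wx1* were called, with values between -0.77 and -1.51. A negative term here means that the log2FC against WT in a double or triple mutant was below the summed log2FC of its parts. It does not always mean a rise over WT: *wx1* in *nkd1 o2* was at -3.47 and *su1* in the triple mutant at -0.07. The WT libraries enter each of the 4 interactions with a positive sign, so a low WT level lowers every term.

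**Figure D3:**
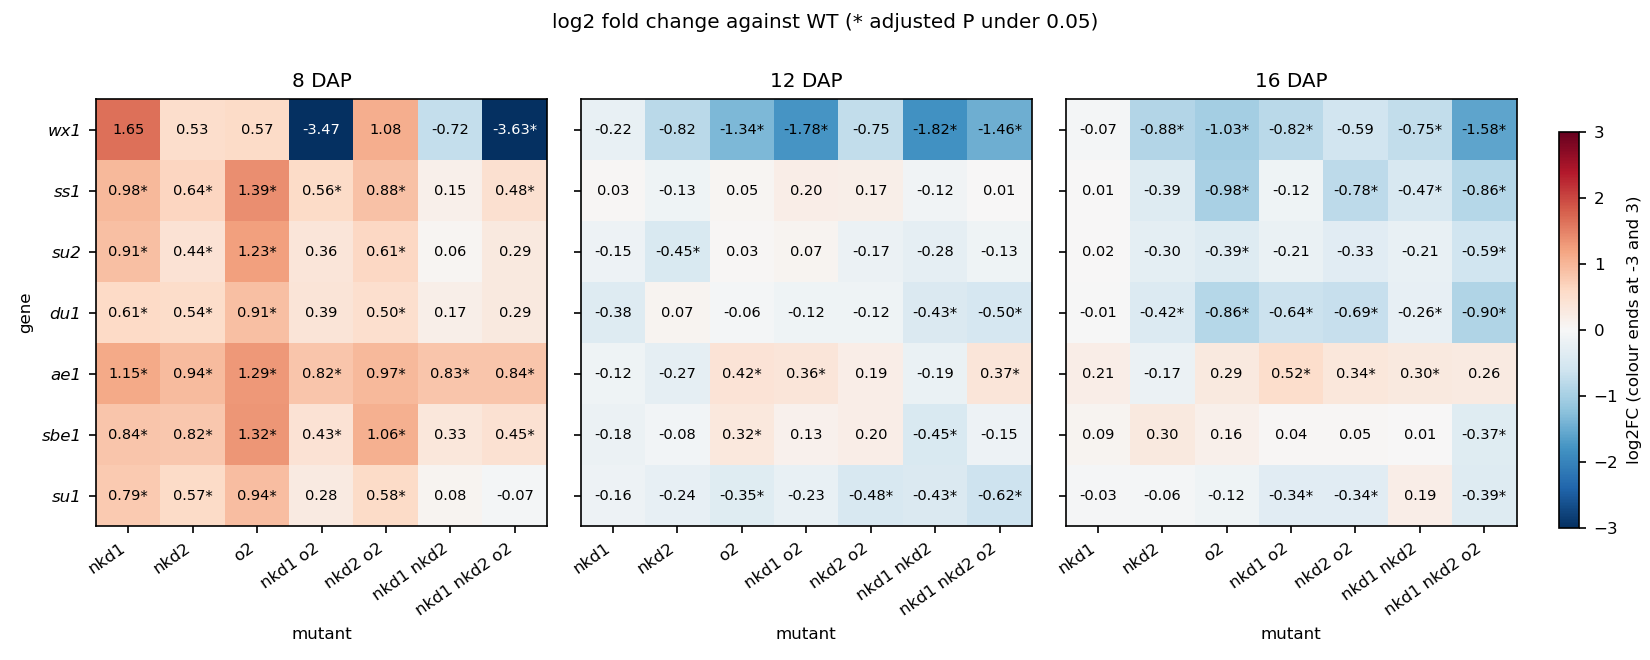
The log2FC of each gene (rows) against WT in the 7 mutants (columns), with 1 panel for each age, the value printed in its cell, colour running from blue (lower) to red (higher), and an asterisk at adjusted P below 0.05. At 8 DAP most values lie above 0, and at 16 DAP *du1* lies below 0 in every mutant that carries *o2*, from -0.90 to -0.64.

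At 12 DAP the excess over WT at 8 DAP was mostly gone, and 4 of 49 comparisons were called higher and 12 lower, against 12.9% and 12.4% of all gene comparisons. The median log2FC over the 49 was -0.15, beside 0.00 over all genes. At 16 DAP 3 were called higher and 21 lower, against 15.6% and 14.7%, with a median of -0.26 beside 0.01. Without replicate 2 of every genotype, 14 of the 49 at 16 DAP were called in either direction, in place of 24. The 3 higher calls at 16 DAP and 3 of the 4 at 12 DAP were *ae1*. *nkd1* had no call at either age. In that mutant 2.21% of all genes were called higher and 2.07% lower at 12 DAP, and 1.53% and 1.04% at 16 DAP.

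*wx1* was lower than WT at 12 DAP in *o2*, *nkd1 o2*, *nkd1 nkd2*, and the triple mutant, and these were the only DEGs among the 7 genes at that age, where 4.79% of all gene comparisons were DEGs lower than WT. Its level was 336, 165, 124, and 205 CPM in WT and 48.8, 44.5, 94.9, and 48.5 CPM in *nkd1 nkd2* (log2FC -1.82, SE 0.35, adjusted P = 0.000205). It was 96.6, 51.1, 44, and 47.8 CPM in *nkd1 o2* (log2FC -1.78, SE 0.35, adjusted P = 0.000256) and 69.6, 106, 80.2, and 66.6 CPM in *o2* (log2FC -1.34, SE 0.34, adjusted P = 0.00361). These 3 groups lay wholly below WT, whereas 1 library of the triple mutant reached into the WT range. At 16 DAP *wx1* was called lower in 5 mutants, and the triple mutant, at 92.1, 87.1, 94.3, and 99.7 CPM, was furthest from the WT values of 335, 307, 222, and 235 CPM (log2FC -1.58, SE 0.27, adjusted P = 2.04e-05). *o2* was the other DEG (log2FC -1.03, SE 0.27, adjusted P = 0.00383), beside 5.66% of all gene comparisons.

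In *nkd2* the *wx1* level was 141, 117, 124, and 215 CPM at 16 DAP (log2FC -0.88, SE 0.27, adjusted P = 0.028), and in *nkd2 o2*, at 221, 161, 91, and 269 CPM, it did not pass the test (log2FC -0.59, SE 0.27, adjusted P = 0.0956). The *nkd2-o2* interaction of *wx1* was called above 0 at 12 DAP (log2FC 1.42, SE 0.40, adjusted P = 0.0348) and at 16 DAP (log2FC 1.32, SE 0.44, adjusted P = 0.0377). The interaction of the *nkd1 nkd2* pair with *o2* was called at 12 DAP (log2FC 1.70, SE 0.46, adjusted P = 0.0137). These were the only interaction calls of the 28 at 12 DAP, where 6.79% of all gene tests were called above 0 and 6.82% below, and none was called without replicate 4 of the genotypes.

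*ss1* did not differ from WT by the test in any mutant at 12 DAP, with log2FC between -0.13 and 0.20. At 16 DAP it was called lower in *o2*, *nkd2 o2*, *nkd1 nkd2*, and the triple mutant. The *o2* libraries were at 504, 549, 580.3, and 1022 CPM against 1363, 1442, 1201, and 1156 CPM in WT (log2FC -0.98, SE 0.16, adjusted P = 1.99e-05), with 3 of them near each other and replicate 4 far above these. The triple mutant was at 651, 773, 775, and 681 CPM (log2FC -0.86, SE 0.16, adjusted P = 4.63e-05) and *nkd2 o2* at 760.3, 927, 817, and 543 CPM (log2FC -0.78, SE 0.16, adjusted P = 0.000363). Scaled to library totals, the means were 871 CPM in WT, 589 in *o2*, 699 in *nkd2 o2*, and 801 in the triple mutant. *nkd1 o2* was the exception among the *o2* genotypes, at 1138, 1300.1, 1082, and 1254 CPM, which overlapped WT (log2FC -0.12, SE 0.16, adjusted P = 0.571) and lay wholly above *o2* (log2FC 0.86, SE 0.16, adjusted P = 0.000164). The *nkd1-o2* interaction of *ss1* was called above 0 (log2FC 0.84, SE 0.24, adjusted P = 0.0192). The effect of *o2* on *ss1* differed between 12 and 16 DAP (log2FC -0.98, SE 0.23, adjusted P = 0.00127), as did that of the triple mutant (log2FC -0.87, SE 0.23, adjusted P = 0.00376).

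At 12 DAP *su2* was called lower in *nkd2* alone, at 331, 327, 402, and 536 CPM against 668, 562, 536, and 437 CPM in WT (log2FC -0.45, SE 0.12, adjusted P = 0.0182). The lower values were those of the *nkd2* pair of replicates 1 and 2, and the call was lost when replicate 1 (log2FC -0.28, adjusted P = 0.296), replicate 2 (log2FC -0.36, adjusted P = 0.224), or replicate 3 (log2FC -0.47, adjusted P = 0.0734) of every genotype was left out. At 16 DAP it was called lower in the triple mutant, at 304, 289, 492, and 431 CPM against 569, 605, 563, and 512 CPM (log2FC -0.59, SE 0.15, adjusted P = 0.0017), and in *o2* (log2FC -0.39, SE 0.15, adjusted P = 0.0419), although both turned above 0 when libraries were scaled to their totals (0.15 and 0.0227).

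*du1* was lower than WT at 16 DAP in 6 of 7 mutants, the widest set of calls among the 7 genes at that age. Its level was 1656, 1394, 1407, and 1648 CPM in WT, 799, 857, 807, and 933 CPM in *o2* (log2FC -0.86, SE 0.09, adjusted P = 3.59e-08), and 709, 837, 915, and 862 CPM in the triple mutant (log2FC -0.90, SE 0.09, adjusted P = 4.97e-09). *nkd1 o2* and *nkd2 o2* were also wholly below WT, with log2FC of -0.64 and -0.69. The calls in *nkd2* (log2FC -0.42, SE 0.09, adjusted P = 0.00291) and *nkd1 nkd2* (log2FC -0.26, SE 0.09, adjusted P = 0.0332) were smaller, and the latter turned to 0.0823 with library totals. Scaled to library totals, the mean was 1030 CPM in WT, 758 CPM in *o2*, and 879 CPM in *nkd2 o2*. It was 982 CPM in *nkd1 o2* and 924 CPM in the triple mutant, nearer to WT than after TMM scaling. *nkd1*, at 1486, 1638, 1442, and 1529 CPM, stood at the WT level (log2FC -0.01, SE 0.09, adjusted P = 0.972) and above every library of the other 6 mutants. At 12 DAP *du1* was called lower in *nkd1 nkd2* (log2FC -0.43, SE 0.13, adjusted P = 0.0102) and the triple mutant (log2FC -0.50, SE 0.13, adjusted P = 0.00193). In *o2* the 12 DAP value was -0.06, and the change of its effect from 12 to 16 DAP passed the test (log2FC -0.76, SE 0.18, adjusted P = 0.00143).

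The *nkd2-o2* interaction of *du1* was called above 0 at 16 DAP (log2FC 0.59, SE 0.14, adjusted P = 0.00695), with *nkd2 o2* at 984, 1036, 1013, and 799 CPM and *nkd2* at 1269.5, 994, 1111, and 1194 CPM. Over the 4 interactions at 16 DAP, 3 of 28 tests were called above 0 and 2 below, against 10.2% and 10.9% of all gene tests, and the 5 calls became 10 with library totals and 0 when replicate 1 or replicate 2 of the genotypes was left out.

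The calls of *ae1* against WT in grain filling were all higher. At 12 DAP it was 7448, 8304, 7098, and 6648 CPM in *o2* against 6289, 5576, 5192, and 5372 CPM in WT (log2FC 0.42, SE 0.13, adjusted P = 0.0125), 6217, 6941, 7529.9, and 7779.6 CPM in *nkd1 o2* (log2FC 0.36, SE 0.13, adjusted P = 0.0322), and 6846, 6561, 7584, and 8422 CPM in the triple mutant (log2FC 0.37, SE 0.13, adjusted P = 0.0162). The *o2* and triple mutant libraries lay wholly above WT, whereas those of *nkd1 nkd2*, at 5139, 4474, 5132, and 4957 CPM, lay wholly below it and did not pass the test (log2FC -0.19, SE 0.13, adjusted P = 0.261). At 16 DAP the calls were in *nkd1 o2*, at 5776, 6339, 5892, and 6160.2 CPM against 4543, 4384, 3877, and 3971 CPM in WT (log2FC 0.52, SE 0.12, adjusted P = 0.000665), in *nkd2 o2* (log2FC 0.34, SE 0.12, adjusted P = 0.0259), and in *nkd1 nkd2* (log2FC 0.30, SE 0.12, adjusted P = 0.0484). *o2* itself, at 4499, 4958, 5244, and 6045 CPM, and the triple mutant had log2FC of 0.29 and 0.26 and did not pass the test. Scaled to library totals, the *ae1* values above 0 stayed above 0 and were larger, up to 1.09 in *nkd1 o2* at 16 DAP. The *nkd1 nkd2* mean at 12 DAP, below WT after TMM scaling, was then above it, at 5059 against 4551 CPM.

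*sbe1* differed little from WT in grain filling. At 12 DAP it was called higher in *o2* (log2FC 0.32, SE 0.11, adjusted P = 0.034) and lower in *nkd1 nkd2*, at 1192, 1018, 1213, and 1123 CPM against 1781, 1553, 1435, and 1421 CPM (log2FC -0.45, SE 0.11, adjusted P = 0.00271), the only group wholly below WT. At 16 DAP the triple mutant, at 911, 991, 1128, and 1092 CPM against 1479.8, 1450.3, 1319, and 1026 CPM in WT, was the single call (log2FC -0.37, SE 0.11, adjusted P = 0.00728), which turned to 0.36 with library totals. The triple mutant was also below *o2* at both ages, with log2FC of -0.47 and -0.54, and the interaction of the *nkd1 nkd2* pair with *o2* was called below 0 at 16 DAP (log2FC -0.54, SE 0.17, adjusted P = 0.028).

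*su1* was at 1087, 1065, 1054, and 1074 CPM in the 12 DAP WT libraries, and all 7 mutants lay wholly below that range after TMM scaling. No share over all genes is given for this count, all 7 share these WT libraries, and 3 did not pass the test. With library totals the median log2FC of all genes against WT at 12 DAP was 0.308 in *o2* and 0.412 in the triple mutant. The calls were in the triple mutant, at 654, 660.1, 692, and 804 CPM (log2FC -0.62, SE 0.09, adjusted P = 9.86e-07), in *nkd2 o2*, at 690.0, 740.1, 809, and 781 CPM (log2FC -0.48, SE 0.09, adjusted P = 9.95e-05), in *nkd1 nkd2* (log2FC -0.43, SE 0.09, adjusted P = 0.000367), and in *o2*, at 822, 902, 812, and 756 CPM (log2FC -0.35, SE 0.09, adjusted P = 0.00255). At 16 DAP *su1* was called lower in *nkd1 o2*, *nkd2 o2*, and the triple mutant, with log2FC of -0.34, -0.34, and -0.39, and these 3 turned above 0 with library totals (0.23, 0.11, and 0.35). In *nkd1 nkd2* the value was -0.43 at 12 DAP and 0.19 at 16 DAP, where it did not pass the test against WT. The difference between the 2 ages passed the test (log2FC 0.60, SE 0.15, adjusted P = 0.00773). The interaction of the *nkd1 nkd2* pair with *o2* was called below 0 at 16 DAP (log2FC -0.46, SE 0.12, adjusted P = 0.0138), and the triple mutant was below *nkd1 nkd2* at that age (log2FC -0.58, SE 0.08, adjusted P = 1.22e-06).

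Of the 28 comparisons within mutant backgrounds, 1 was called higher and 3 lower at 12 DAP, against 13.7% and 13.2% of all gene comparisons. The higher call was *ae1* in the triple mutant against *nkd1 nkd2* (log2FC 0.57, SE 0.13, adjusted P = 0.00135), and the lower calls were *du1*, *sbe1*, and *su1* in the triple mutant against *o2* (-0.44, -0.47, and -0.27). At 16 DAP 1 was called higher and 7 lower, against 14.8% and 15.1%, and the 8 calls became 4 without replicate 1 of every genotype and 13 without replicate 4. The higher call was *ss1* in *nkd1 o2* against *o2*, and 4 of the lower calls lay in the triple mutant against *nkd1 nkd2*, with *wx1* at -0.83, *du1* at -0.64, *su1* at -0.58, and *sbe1* at -0.38, which turned to 0.0222 with library totals. None of the 7 genes was called in *nkd2 o2* against *o2* at either age, where 9.61% and 8.17% of all genes were called higher and lower at 12 DAP and 7.25% and 6.73% at 16 DAP.

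The reads of the 7 genes were also divided among themselves within each library, a measure that needs no scaling between libraries. The share of a gene depends on its transcript length and on the other 6 genes, so it describes the make-up of the set. *ae1* took 50% ± 0.776 (SD, n = 4) of these reads in WT at 12 DAP, 57.2% ± 0.814 in *o2*, and 61.8% ± 0.781 in the triple mutant. At 16 DAP the WT libraries ranged from 41.1 to 42.6%, whereas the 16 libraries of the 4 *o2* genotypes ranged from 52.5 to 59.6%, above all 16 libraries with a normal *O2* gene, which reached 51.5%. In *nkd1 nkd2* it was 50% ± 1.51.

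The share of *du1* at 16 DAP and that of *su1* at 12 DAP were lower where *o2* was mutant. *du1* took 8.2 to 10.4% in the 16 *o2* mutant libraries at 16 DAP and 11.1 to 17.7% in the other 16. The 2 sets overlapped at 12 DAP (7.41 to 11.2% and 10.1 to 18.6%) and at 8 DAP, where the medians were 14.5% and 14.1%. *su1* took 5.71 to 7.97% in the *o2* mutant libraries at 12 DAP and 8.21 to 10.2% in the others, and at 8 and 16 DAP the 2 sets overlapped. The *ss1* share at 16 DAP was 12.9% ± 0.582 in WT, 6.81% ± 1.46 in *o2*, and 10.9% ± 0.403 in *nkd1 o2*. *sbe1* had its highest share in *nkd2* at 16 DAP, 18.3% ± 0.873, against 13.1% ± 1.42 in WT.

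**Figure D4:**
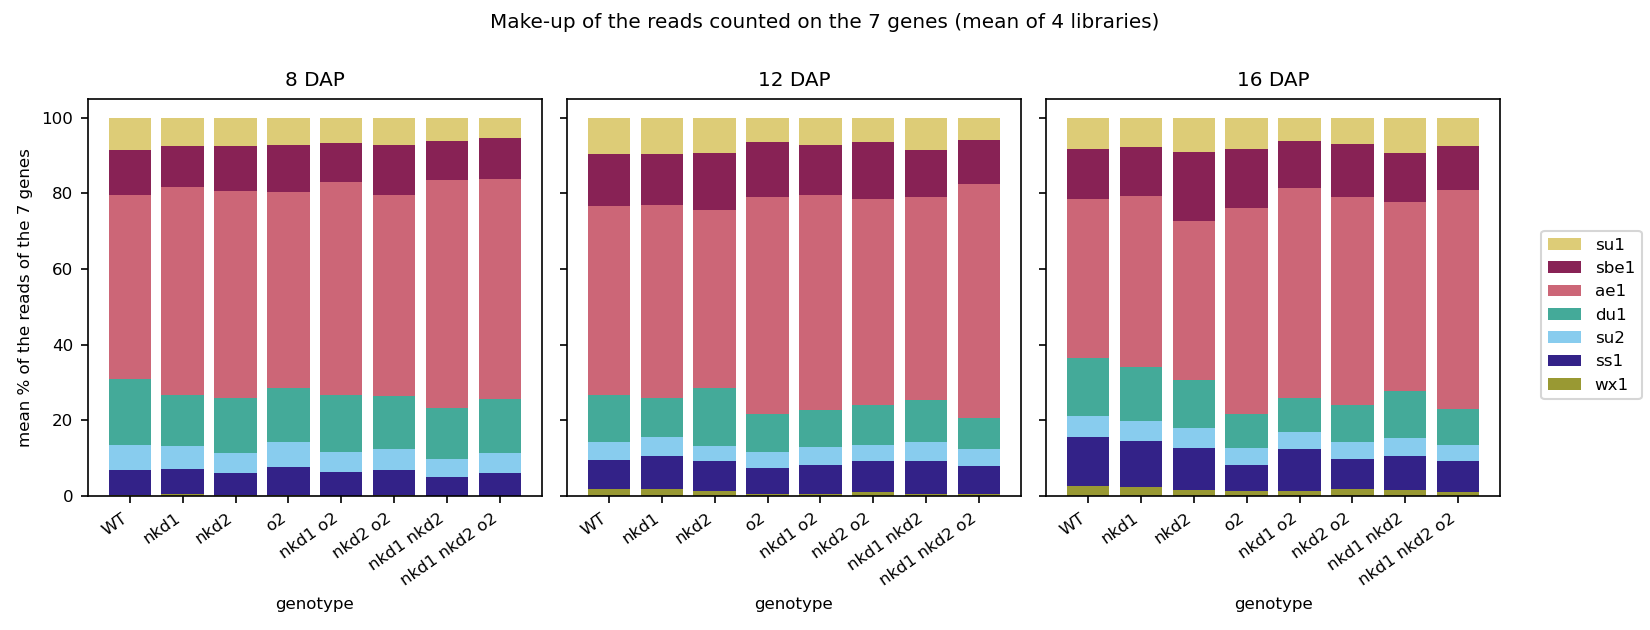
Share of the reads of the 7 genes that falls on each gene, in percent and as the mean of 4 libraries, for the 8 genotypes at each age. The *ae1* share at 16 DAP runs from 41.9% in WT to 57.8% in the triple mutant.

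The ratio of *ae1* to *su1* reads put the branching gene against the debranching gene. In WT it was 5.63, 5.24, and 5 at 8, 12, and 16 DAP. In the triple mutant it was 10.6, 10.5, and 7.81, and in *o2* 7.24, 8.95, and 6.64. The libraries of these 2 mutants lay above those of WT at every age, with 9.94 to 11 in the triple mutant and 4.92 to 5.79 in WT at 12 DAP. This was not particular to them. At 8 DAP all 7 mutants lay wholly above WT, which reached 5.84, and the lowest mutant library was at 6.62 in *nkd1*. At 16 DAP the mean was 9.05 in *nkd1 o2* and 7.99 in *nkd2 o2*, above the triple mutant, but 4.62 in *nkd2*, below WT.

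The effects of *o2*, *nkd1 nkd2*, and the triple mutant against WT changed between 8 and 12 DAP. In 14 of 21 tests the later effect was called lower than the earlier one and in none higher, against 13.9% and 11.4% of all gene tests. With library totals 8 were called in place of 14, and the *ae1* value of the triple mutant turned from -0.53 to 0.0328. In *o2* the 6 genes other than *wx1* were called, from -1.0 for *ae1* to -1.47 for *ss1*. *su1* had the smallest adjusted P (log2FC -1.42, SE 0.15, adjusted P = 1.39e-11). From 12 to 16 DAP, 1 of 21 was called higher and 3 lower, against 6.99% and 5.57%, and these were the *ss1*, *du1*, and *su1* results given above.

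The transcript of a gene named for the embryo was also higher in *o2* than in WT at 16 DAP. Transcripts of *ESP1*, an embryo-specific protein gene, were at 9.58 to 44.3 CPM in the *o2* libraries, 1.92 to 6.09 CPM in WT, and 0 to 13.9 CPM in the other genotypes at that age. In *nkd1 o2* and the triple mutant *ESP1* was at most 0.558 and 0.4 CPM. Whether other tissue was present, and its part in the lower *ss1*, *su2*, *du1*, and *wx1* levels of *o2*, was not tested.

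The study's gene annotation names 2 further genes of these enzyme classes. *SS5* (Zm00001d051976), a starch synthase gene whose Arabidopsis counterpart acts in granule initiation, was 72.2, 68.9, 70.5, and 91.9 CPM in WT at 16 DAP and 24.8, 28, 28.5, and 30.5 CPM in *nkd1 o2* (log2FC -1.45, SE 0.14, adjusted P = 2.25e-09). It was called lower than WT in all 4 *o2* genotypes at 16 DAP, with the triple mutant at -1.41, *nkd2 o2* at -1.10, and *o2* at -0.62, and in *nkd1 nkd2* (-0.37). *SBE3* (Zm00001d003817), a branching enzyme gene, was called higher in *nkd1 nkd2* at 16 DAP, at 305, 292, 236, and 337 CPM against 129, 127, 112, and 153 CPM in WT (log2FC 1.18, SE 0.12, adjusted P = 2.42e-08), and in the triple mutant (log2FC 0.70, SE 0.12, adjusted P = 2.09e-05). In *o2* at 16 DAP it was at -0.13 and did not pass the test.

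Set in order of their means, most neighbouring genotypes overlapped. Neighbours in such an order are close by the way they were picked, and no share over all genes is given. Of the 49 neighbouring pairs at each age, the 4 libraries overlapped in 42 at 8 DAP, 46 at 12 DAP, and 47 at 16 DAP. The pairs that did not overlap at 12 DAP were *nkd1* above *nkd1 nkd2* in *sbe1*, WT above *nkd1* in *su1*, and *nkd1* above *nkd1 o2* in *su1*. Those at 16 DAP were *nkd1* above *nkd1 nkd2* in *du1* and *nkd1 nkd2* above the triple mutant in *sbe1*. At 8 DAP *o2* lay wholly above the next genotype in *ss1*, *su2*, *du1*, and *ae1*, WT lay wholly below the next in *ae1*, and the triple mutant lay above *nkd1 nkd2* in *ss1* and *du1*.

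The genes whose pattern was most like the mean pattern of the 7 were sought among the 10934 genes that averaged 10 CPM or more. Over the 24 group means, the highest Pearson's r were 0.988 for Zm00001d002835 and 0.987 for Zm00001d020680, neither of which is named in the tables used here. None of the 5 most alike by Pearson's r was among the 5 most alike by Spearman's rho. These correlations rest mainly on the step from 8 to 12 DAP that the groups share.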

How the data were processed

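Total RNA of pooled endosperms was sequenced by the study, and its methods name HISAT2 2.1.0, SAMtools 1.9, StringTie 1.3.6, and HTSeq 0.11.1 with the B73 RefGen_v4 genome. The authors deposited raw read counts per gene, 1 table per library, and these counts were used as deposited. The annotation release, strand setting, and counting mode are not given in the sources used here, so reads shared with antisense or near-identical genes cannot be set apart. Rows that name no gene were left out.

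Counts were tested in edgeR 4.0.16 (R 4.3.3) with TMM scaling, filterByExpr, and the quasi-likelihood test, and P values were adjusted by the Benjamini-Hochberg method across the tested genes. Comparisons of genotypes used the 32 libraries of an age (25467, 24504, and 24239 genes tested at 8, 12, and 16 DAP), interactions the 16 libraries of the 4 genotypes concerned, and changes with age all 96 libraries (27328 genes). SE was taken as the size of log2FC over the square root of F. CPM used TMM factors over all 96 libraries, whereas log2FC used those of its own fit. Alternatives were DESeq2 1.42.0, other scalings and filters, fits with other sets of libraries, and each replicate number left out. The fits were tested on simulated data. Figures were drawn with matplotlib 3.10.9. The genes named were the 7 members, the 3 mutated genes, 2 other starch genes, and the 5 genes most alike by Pearson's r. The 7 members were selected by name, and they and the lists were chosen with earlier results of these data known. Sequences and coordinates are not used here.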

Additional observations from a re-analysis of the deposited data

Results flagged for a closer look

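In 14 of 168 groups of 4 libraries (7 genes in 24 groups), 1 library stood so far from the others that its gap to the nearest of them exceeded the critical value of Dixon's test for 4 samples, taken relative to the range of the group. Chance alone gives about 1 in 20 where values are normally distributed, which was not tested for these CPM values. No rate over all genes is given, so the count cannot show an excess. For *wx1* the library apart was at 20.3 CPM in WT at 8 DAP (highest, replicate 3, others 0.571 to 1.64 CPM), 25.1 CPM in *o2* at 8 DAP (highest, replicate 3, others 3.02 to 5.42 CPM), 1.69 CPM in *nkd1 o2* at 8 DAP (highest, replicate 4, others 0.145 to 0.238 CPM), 96.6 CPM in *nkd1 o2* at 12 DAP (highest, replicate 1, others 44 to 51.1 CPM), 94.9 CPM in *nkd1 nkd2* at 12 DAP (highest, replicate 3, others 44.5 to 48.8 CPM), and 130.4 CPM in *nkd1 nkd2 o2* at 12 DAP (highest, replicate 4, others 55.1 to 65.1 CPM). For *ss1* the library apart was at 289 CPM in *nkd1* at 8 DAP (highest, replicate 3, others 226 to 232 CPM), 1022 CPM in *o2* at 16 DAP (highest, replicate 4, others 504 to 580.3 CPM), and 96.4 CPM in *nkd1 nkd2* at 8 DAP (lowest, replicate 1, others 144 to 146 CPM). For *su2* the library apart was at 557 CPM in *nkd1 nkd2* at 16 DAP (highest, replicate 4, others 445 to 463 CPM). For *du1* the library apart was at 1018 CPM in *nkd2 o2* at 12 DAP (lowest, replicate 1, others 1298 to 1323 CPM). For *sbe1* the library apart was at 206 CPM in *nkd1 o2* at 8 DAP (lowest, replicate 2, others 321 to 339 CPM). For *su1* the library apart was at 878 CPM in *nkd1* at 16 DAP (highest, replicate 4, others 809 to 820.4 CPM) and 1046 CPM in *nkd2* at 12 DAP (highest, replicate 4, others 844 to 857 CPM). The 6 flags of *wx1* lay at 8 and 12 DAP, and in each the library apart was the highest.

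The tests of a difference between effects passed the threshold (adjusted P below 0.05, Benjamini-Hochberg method, edgeR) in 50 of 126 cases, over interactions and changes of an effect with age. For interactions these were 25, 2, and 5 of 28 at 8, 12, and 16 DAP, against 24.1, 13.6, and 21.1% of all gene tests. For changes of an effect they were 14 of 21 from 8 to 12 DAP, against 25.3%. From 12 to 16 DAP they were 4 of 21, against 12.6%. Values below are on the log2 scale. At 8 DAP the *nkd1-nkd2* interaction was -1.02 for *du1*, -1.36 for *sbe1*, -1.29 for *ae1*, -1.33 for *su2*, -1.51 for *ss1*, and -1.32 for *su1*. At 8 DAP the *nkd1-o2* interaction was -1.10 for *du1*, -1.70 for *sbe1*, -1.58 for *ae1*, -1.74 for *su2*, -1.77 for *ss1*, -5.65 for *wx1*, and -1.42 for *su1*. At 8 DAP the *nkd2-o2* interaction was -0.96 for *du1*, -1.09 for *sbe1*, -1.27 for *ae1*, -1.07 for *su2*, -1.16 for *ss1*, and -0.94 for *su1*. At 8 DAP the *nkd1 nkd2* with *o2* interaction was -0.77 for *du1*, -1.19 for *sbe1*, -1.27 for *ae1*, -0.98 for *su2*, -1.05 for *ss1*, and -1.07 for *su1*. At 12 DAP the *nkd2-o2* interaction was 1.42 for *wx1*. At 12 DAP the *nkd1 nkd2* with *o2* interaction was 1.70 for *wx1*. At 16 DAP it was, for *nkd1-o2*, 0.84 for *ss1*. At 16 DAP it was, for *nkd2-o2*, 0.59 for *du1* and 1.32 for *wx1*. At 16 DAP it was, for *nkd1 nkd2* with *o2*, -0.54 for *sbe1* and -0.46 for *su1*. All 4 interactions at an age share the WT libraries.

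From 8 to 12 DAP the effect of *o2* against WT changed by -1.10 for *du1*, -1.14 for *sbe1*, -1.0 for *ae1*, -1.33 for *su2*, -1.47 for *ss1*, and -1.42 for *su1*. From 8 to 12 DAP the effect of *nkd1 nkd2* against WT changed by -0.61 for *du1*, -0.79 for *sbe1*, -1.03 for *ae1*, and -0.52 for *su1*. From 8 to 12 DAP the effect of *nkd1 nkd2 o2* against WT changed by -0.86 for *du1*, -0.68 for *sbe1*, -0.53 for *ae1*, and -0.62 for *su1*. From 12 to 16 DAP the effect of *o2* against WT changed by -0.76 for *du1* and -0.98 for *ss1*. From 12 to 16 DAP the effect of *nkd1 nkd2* against WT changed by 0.60 for *su1*. From 12 to 16 DAP the effect of *nkd1 nkd2 o2* against WT changed by -0.87 for *ss1*. These changes also share the WT libraries of each age.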

How the results depend on the processing

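Over 469 gene comparisons and tests, 226 were called, and 133 of these kept their direction and their side of the threshold under every alternative tried. Over 5061 recomputed values, 4693 did so, 223 lost the call, 126 gained one, and 19 changed sign. All 19 sign changes came from scaling to library totals, which moved the median of all genes, and all 19 had the TMM direction once that median was subtracted. They were, at 12 DAP against WT in the triple mutant, *sbe1* (0.28) and *su2* (0.31). At 16 DAP against WT they were *su2* (0.0227) and *su1* (0.30) in *o2*, *su2* (0.36), *ss1* (0.45), and *su1* (0.23) in *nkd1 o2*, *su1* (0.11) in *nkd2 o2*, *du1* (0.0823) in *nkd1 nkd2*, and *sbe1* (0.36), *su2* (0.15), and *su1* (0.35) in the triple mutant. In the triple mutant at 16 DAP they were *du1* (0.28), *ae1* (0.29), and *su1* (0.0533) against *o2*, and *sbe1* (0.0222) and *ae1* (0.36) against *nkd1 nkd2*. The last were *sbe1* in *nkd1* from 12 to 16 DAP (-0.38) and the change of the triple mutant effect on *ae1* from 8 to 12 DAP (0.0328).

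Counts of calls moved by over 1.5 times as follows. The 5 interaction calls at 16 DAP became 8 with DESeq2, 10 with library totals, and 1 with adjustment over DEGs, where genes that were no DEG left the test. The 2 at 12 DAP became 1 with all 32 libraries in the fit, and the 14 changes of effect from 8 to 12 DAP became 8 with library totals. The cause was not tested. Leaving out a replicate number from all genotypes at a time, the calls against WT at 8, 12, and 16 DAP ranged from 17 to 33, 11 to 19, and 14 to 26. Those in mutant backgrounds ranged from 10 to 18, 3 to 4, and 4 to 13, and those of interactions from 20 to 25, 0 to 2, and 0 to 8. The calls from 8 to 12 DAP stayed at 56, those from 12 to 16 DAP ranged from 10 to 16, and those of a changed effect ranged from 11 to 16 and 3 to 4. Such a fit has 3 libraries a group.

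Replicate numbers did not pair the libraries on average: deviations of same-numbered libraries from their group means had a mean r of -0.00182, with 31 of 336 pairs above 0.1. Of these pairs 27 were at 8 DAP, 4 at 12 DAP, and 0 at 16 DAP. At 8 DAP r ran from -0.429 to 0.343 over 112 pairs, with a mean of -0.00528. With the number as a replicate block, the calls against WT were 33, 16, and 24 at 8, 12, and 16 DAP, those in mutant backgrounds 17, 4, and 8, and those of interactions 25, 2, and 4. The block gave 56 and 21 calls for the steps in age and 16 and 4 for changed effects. Depth limits *wx1* at 8 DAP, where single libraries held as few as 4 reads.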
